A study of Bos taurus with 14 samples.

Results

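GPNMB, CD68 and PLA2G7 are genes of tissue macrophages, and their transcripts were followed in mammary biopsies of dry Holstein cows. All probe sets whose single annotated symbol is one of these 3 genes were taken: 3 for GPNMB, 1 for CD68 and 1 for PLA2G7, or 5 of the 24016 probe sets tested on the array. The 3 genes were chosen by their measured signal at day -9 before calving, which was lower in short days than in long days in the arrays described here. Their photoperiod difference at day -9 is therefore a description and carries no test.

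Cows were dried off about 60 d before the predicted calving date. They were then placed at random under a long day photoperiod (LD, 16 h light and 8 h dark) or under short days (SD, with light for 8 h and dark for 16 h) until calving. The arrays came from 4 groups: LD at day -24 (n = 3), SD at day -24 (n = 3), LD at day -9 (n = 4) and SD at day -9 (n = 4), days counted from calving. All groups were dry Holstein cows awaiting calving, and no group was kept outside both photoperiods. Whether a cow was sampled on both days, or gave more than 1 array, is not stated, so p-values measure only the spread between these arrays. Signal is the log2 value that robust multi-array average (RMA) gives, 1 value per probe set and array.

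Macrophages of the resting gland clear dying epithelium and its lipid and milk proteins, and they sit along the ducts and alveoli as the gland prepares for the next lactation. GPNMB encodes a transmembrane glycoprotein of late endosomes and lysosomes that macrophages with a heavy load of lipid or debris make in quantity. CD68 encodes a glycoprotein of the lysosomal membrane, related to the LAMP family and used as a general macrophage marker. PLA2G7 encodes a phospholipase, secreted mainly by macrophages, that inactivates platelet-activating factor and oxidised phospholipids.

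The 14 arrays correlated pairwise, over probe sets, between 0.950 and 0.992. The array LD day -24 replicate 1 lay farthest out on the first principal component, SD day -24 replicate 3 on the second and SD day -9 replicate 1 on the third. Of the 24016 probe sets tested, 280 read at least 0.7 lower than in every other array in both SD day -24 replicate 3 and the array LD day -9 replicate 4. Among them were 0 of the 5 probe sets of GPNMB, CD68 and PLA2G7, and at that share any 5 probe sets would hold few or none. The milk protein genes CSN2 and LALBA had mean signals of 12.81 and 12.71 and the luminal keratin gene KRT18 8.46, so the markers of secretory epithelium that define the labelled tissue were measured. Macrophage markers were measured as well, with a mean signal of 9.52 for the receptor gene CSF1R, 9.87 for C1QA and 10.05 for AIF1.

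GPNMB was measured by 3 probe sets, and that of the highest signal (Bt.9807.1.S1_at, below without its ending) showed the widest spread of values. In LD at day -9 it read 8.47, 8.22, 8.22 and 7.91. In SD at day -9 it read 7.06, 6.48, 7.28 and 5.97. Every LD array of that day lay above every SD array, with 0.63 between the nearest ones. The means were 8.20 ± 0.23 in LD and 6.70 ± 0.59 in SD (SD of the arrays, n = 4 each), a log2 difference of -1.51 (SE 0.34), or 2.84-fold lower in short days. In bulk tissue, fewer macrophages and less of a transcript per macrophage cannot be told apart. Which cells gave the signal is not seen either.

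At day -24 the same probe set read 7.01, 6.63 and 7.90 in LD and 6.11, 6.88 and 7.39 in SD, and the groups overlapped. LD day -24 replicate 3, at 7.90, lay beside the lowest LD array of day -9, at 7.91. The other 2 LD arrays of day -24 lay among the SD arrays. The 4 SD arrays of day -9 spanned nearly the same range as the 3 SD arrays of day -24.

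CD68 was measured by 1 probe set. Its LD arrays at day -9 read 8.39, 8.75, 7.72 and 7.80, and its SD arrays 7.28, 6.52, 7.18 and 7.26. The groups did not overlap, and 3 of the 4 SD arrays lay between 7.18 and 7.28 while SD day -9 replicate 2 was well below them. The means were 8.17 ± 0.49 in LD and 7.06 ± 0.36 in SD (SD of the arrays, n = 4 each), a log2 difference of -1.11 (SE 0.26), or 2.15-fold lower in short days. At day -24 CD68 read 6.94, 7.34 and 7.98 in LD and 7.22, 7.31 and 7.07 in SD. As for GPNMB, LD day -24 replicate 3 was the highest array of its day, and the SD values lay inside the LD range.

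PLA2G7 was measured by 1 probe set too, with an SD over the 14 arrays of 0.44, against 0.80 for GPNMB Bt.9807.1 and 0.59 for CD68. It read 7.39, 7.87, 7.02 and 7.08 in LD at day -9 and 6.45, 6.43, 6.65 and 6.46 in SD at day -9. The SD arrays were tightly grouped and all lay below the LD arrays. The means were 7.34 ± 0.39 in LD and 6.50 ± 0.10 in SD (SD of the arrays, n = 4 each), a log2 difference of -0.84 (SE 0.21), or 1.79-fold lower in short days. At day -24 it read 6.78, 6.74 and 6.97 in LD and 6.77, 7.52 and 6.53 in SD, so SD day -24 replicate 2 was the highest array of that day and the groups overlapped.

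**Figure D1:**
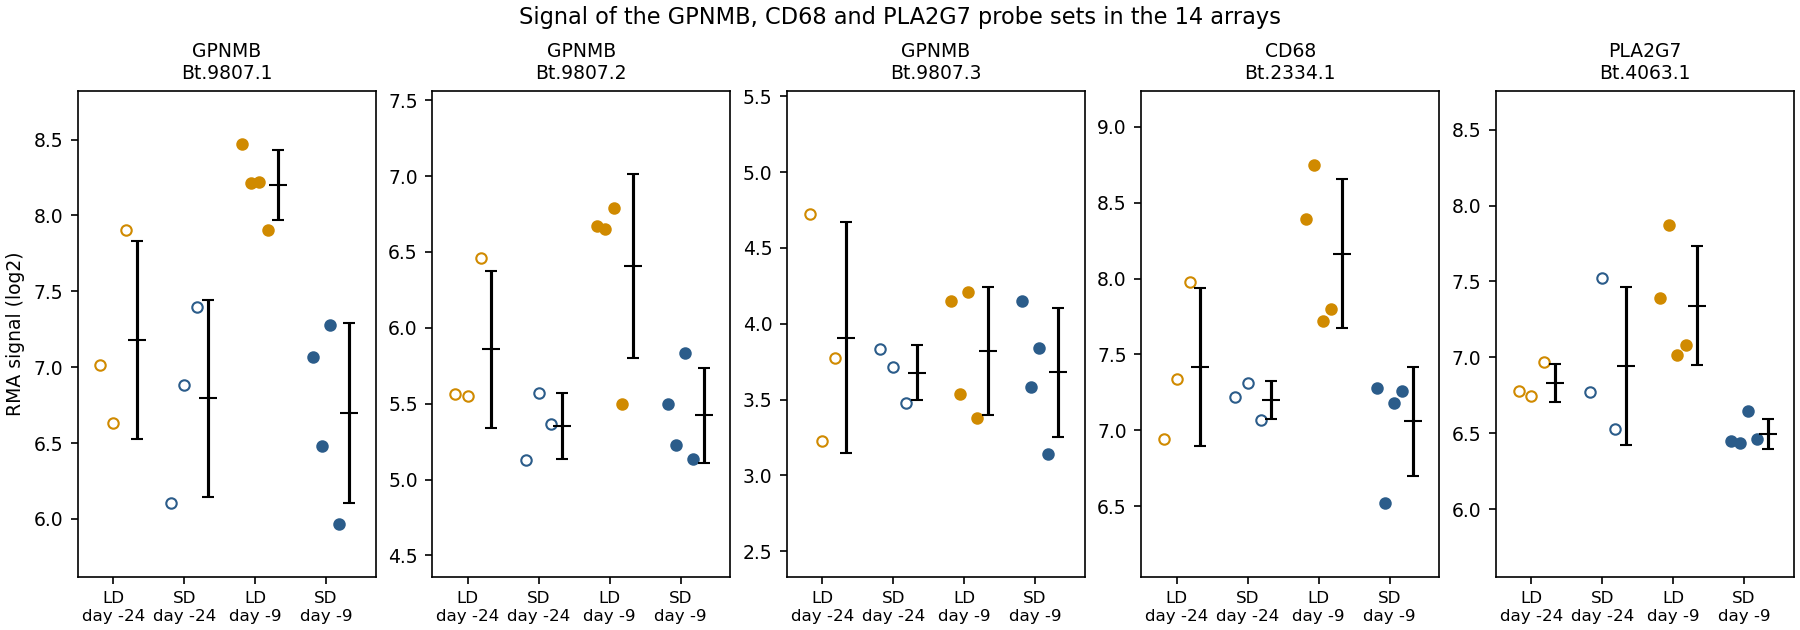
RMA signal (log2, vertical axis) of the 3 GPNMB probe sets and of CD68 and PLA2G7 in each of the 14 arrays, by group; circles are single arrays (open for day -24, filled for day -9) and black bars the group mean and its standard deviation. Each panel spans the same number of log2 units; at day -9 the LD circles of Bt.9807.1, CD68 and PLA2G7 lie above all SD circles, while Bt.9807.3 shows overlapping groups throughout.

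Of the 5 probe sets, 3 had day -9 groups that did not overlap, lower in SD. Among all probe sets this share was 1.12%, and the choice of the genes used this contrast. Ranked by the unadjusted p of that contrast among 24016 probe sets, Bt.9807.1 was at place 9, CD68 at place 12 and PLA2G7 at place 18. No probe set on the array passed a limma adjusted p of 0.05 (0 called, 0% of all), while 346 were higher and 320 lower in SD at an unadjusted p under 0.05.

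The other 2 probe sets of GPNMB showed smaller differences at day -9 than Bt.9807.1. Bt.9807.2 read 6.67, 6.65, 6.79 and 5.50 in LD and 5.50, 5.23, 5.83 and 5.13 in SD, a difference of -0.98. In 3 of the 4 LD arrays it lay above all SD arrays, and in LD day -9 replicate 4 it lay level with SD day -9 replicate 1. Without LD day -9 replicate 4 the difference was -1.28. Bt.9807.3 read between 3.38 and 4.21 in LD and between 3.14 and 4.15 in SD, a difference of -0.14. Its signal was below the lower quartile of the array in 13 of 14 arrays, so this probe set was near the bottom of the measured range in every group. The mean of the 3 probe sets differed by -0.88 at day -9.

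Over the 4 groups, GPNMB (Bt.9807.1) and CD68 shared one order of mean levels, with LD at day -9 highest, then LD at day -24, SD at day -24 and SD at day -9. For both genes the 3 lower groups overlapped each other and only LD at day -9 lay clear of both SD groups. LD at day -9 lay clear of LD at day -24 by 0.0045 for GPNMB and overlapped it for CD68. PLA2G7 had LD at day -9 highest (7.34), then SD at day -24 (6.94), LD at day -24 (6.83) and SD at day -9 (6.50). Its SD arrays of day -9 lay below all LD arrays of both days, and its SD arrays of day -24 overlapped each of the other 3 groups.

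The day -24 arrays were not used to choose the genes at day -9, and there the photoperiod difference can be tested. GPNMB Bt.9807.1 was at 6.79 ± 0.65 in SD and 7.18 ± 0.65 in LD (SD of the arrays, n = 3 each), a difference of -0.39 (95% interval -1.24 to 0.46, limma adjusted p = 0.9997). Bt.9807.2 differed by -0.50 (-1.22 to 0.21) and Bt.9807.3 by -0.23 (-0.99 to 0.53). GPNMB also stood among the genes of smallest p for the photoperiod difference averaged over both days, so its day -24 values are not wholly independent of the choice. CD68 differed by -0.22 (-0.88 to 0.44) and PLA2G7 by 0.11 (-0.42 to 0.64), each with a limma adjusted p of 0.9997.

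None of the 5 probe sets passed the threshold at day -24 (0 of 5 by limma, where 0% of all probe sets passed), and 0 had an unadjusted p under 0.05, where 1.18% of all probe sets did in the higher and 1.23% in the lower direction. The exact permutation p was 0.5 for Bt.9807.1, 0.7 for CD68 and 0.9 for PLA2G7 (two-sided), and 3 against 3 arrays allow no p under 0.1. The intervals of GPNMB and CD68 reach to -1.24 and -0.88, so a lower signal in SD at day -24 of that size lies within the error of 3 arrays a group. Single arrays moved these values. When LD day -24 replicate 3 was left out, GPNMB Bt.9807.1 differed by -0.03, Bt.9807.2 by -0.205 and CD68 by 0.06. GPNMB Bt.9807.1 differed by -0.04 when SD day -24 replicate 1 was left out, and by -0.66 or -0.69 when it was LD day -24 replicate 2 or the array SD day -24 replicate 3. CD68 differed by -0.46 when LD day -24 replicate 1 was left out. PLA2G7 differed by -0.18 when SD day -24 replicate 2 was left out, by 0.20 for SD day -24 replicate 1, by 0.18 for LD day -24 replicate 3, by 0.32 for SD day -24 replicate 3 and by 0.07 for LD day -24 replicate 2.

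From day -24 to day -9, the 3 genes were higher in LD and level or lower in SD, as group means. In LD the differences were 1.02 for GPNMB Bt.9807.1, 0.75 for CD68 and 0.51 for PLA2G7. In SD they were -0.10, -0.14 and -0.44. Both sets of differences share the day -9 arrays in which the genes were chosen, so they are given without a test, and so is the photoperiod by day interaction (-1.12, -0.89 and -0.95). Bt.9807.2 was 0.55 higher in LD and 0.07 higher in SD, and Bt.9807.3 differed by -0.09 and 0.00.

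The mean of both day differences does not contain the photoperiod difference at day -9, since both day -9 groups enter it with equal weight. Averaged in this way, GPNMB Bt.9807.1 was 0.46 higher at day -9 (95% interval -0.10 to 1.03, limma adjusted p = 0.686, exact permutation p = 0.177 over 1225 arrangements, two-sided). CD68 was 0.30 higher (-0.13 to 0.74, limma adjusted p = 0.723) and PLA2G7 0.03 higher (-0.32 to 0.39, limma adjusted p = 0.970), with -0.01 under quantile normalization and with array medians subtracted. Bt.9807.2 was 0.31 higher and Bt.9807.3 differed by -0.04, a sign that turned under quantile normalization (0.0028). The value of Bt.9807.1 was 0.29 when SD day -24 replicate 1 was left out and 0.24 for the mean of the 3 GPNMB probe sets, and that of CD68 was 0.19 when LD day -24 replicate 1 was left out. None of the 5 probe sets passed the threshold by limma (0 of 5, where 0% of all probe sets passed), and 0 had an unadjusted p under 0.05 where 3.64% of all probe sets did in the higher and 4.08% in the lower direction.

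**Figure D2:**
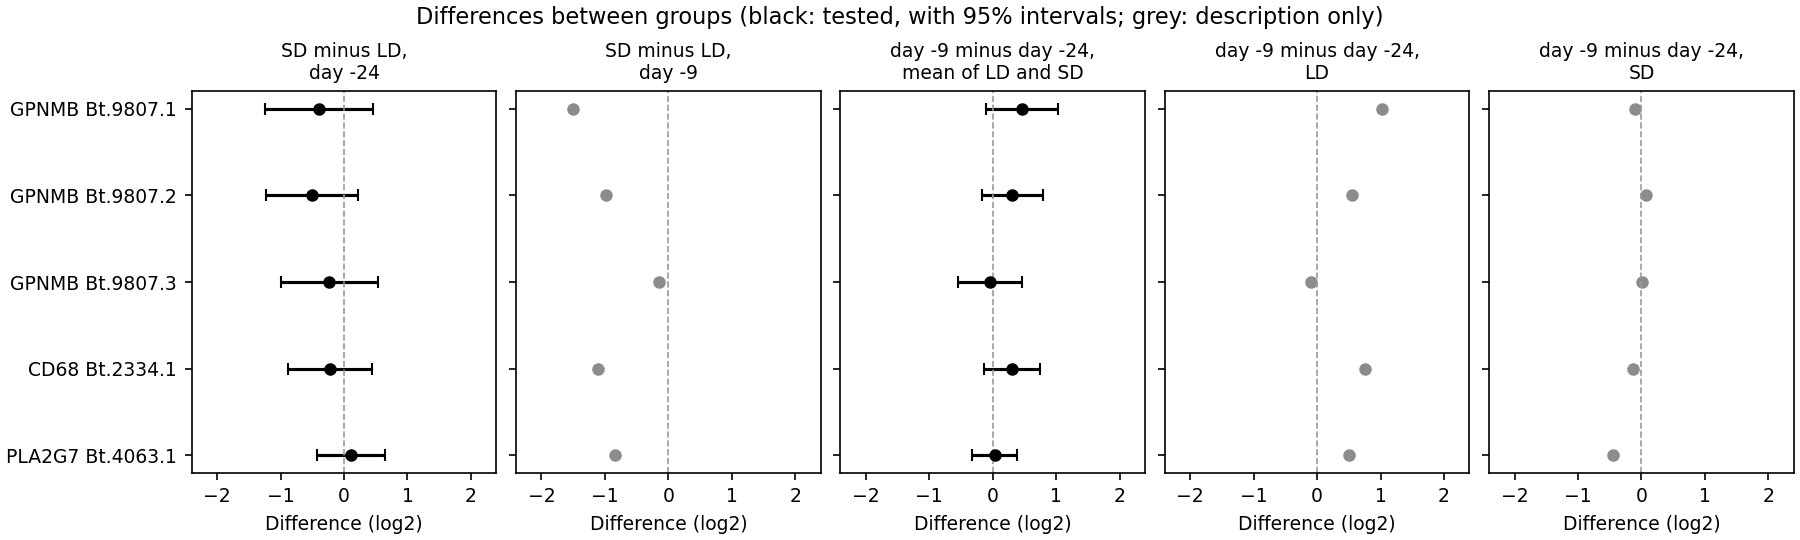
Log2 differences (horizontal axis) of the 5 probe sets for SD minus LD at each day and for day -9 minus day -24. Black points were tested and carry 95% intervals. Grey points weight the LD and SD arrays of day -9, in which the genes were chosen, unequally and carry no interval. The averaged day difference (black) uses the same arrays with equal weight. GPNMB was also listed for the photoperiod difference averaged over both days, so its black points at day -24 are not wholly independent of the choice. The tested intervals all include 0, and the grey points of GPNMB Bt.9807.1, CD68 and PLA2G7 lie below 0 for SD minus LD at day -9 and above 0 for the day difference in LD.

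The size of the deviations of single arrays from their group mean enters the p of the day -9 difference, so it may bear on the choice. How these deviations run together across genes was not used to choose them, and it shows whether the 3 transcripts vary together. CD68 and PLA2G7 did: Pearson r was 0.61 over the 14 arrays (permutation within groups p = 0.00332, adjusted p = 0.00996 over 3 pairs) and Spearman's rho was 0.69 (permutation p = 0.00562, adjusted p = 0.0169). In 11 of 14 arrays both genes lay on the same side of their group means, a count that GPNMB with PLA2G7 reached as well. In LD day -9 replicate 2 they were above the group mean by 0.58 and 0.53, and in LD day -9 replicate 3 below it by 0.44 and 0.32. Without the 2 arrays farthest from the median of CD68, r was 0.70. Leaving out each array in turn gave r between 0.44 and 0.76, and the permutation p stayed under 0.05 in 14 of 14 cases.

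GPNMB varied with neither gene past the threshold. Its r was 0.33 with CD68 (permutation p = 0.291, adjusted p = 0.436; rho 0.34, permutation p = 0.275, adjusted p = 0.413) and 0.16 with PLA2G7 (permutation p = 0.7003, adjusted p = 0.7003; rho 0.27, permutation p = 0.416, adjusted p = 0.416). Without the 2 arrays farthest from the median of GPNMB these were 0.31 and 0.11. Leaving out each array in turn gave 0.08 to 0.49 with CD68 and 0.07 to 0.47 with PLA2G7, and the permutation p was under 0.05 in 0 of 14 cases for both. The r with CD68 was 0.08 when LD day -24 replicate 3 was left out. The r with PLA2G7 was 0.47 (permutation p = 0.0511) when SD day -24 replicate 3 was left out, 0.07 for SD day -24 replicate 1, 0.09 for LD day -24 replicate 3 and 0.10 for SD day -9 replicate 3. GPNMB lay on the same side of its group mean as CD68 in 10 of 14 arrays and as PLA2G7 in 11 of 14. SD day -24 replicate 3 had GPNMB 0.60 above its group mean and PLA2G7 0.41 below it. SD day -9 replicate 4 had GPNMB 0.73 below and CD68 0.20 above. Whether one correlation differs from another was not tested.

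**Figure D3:**
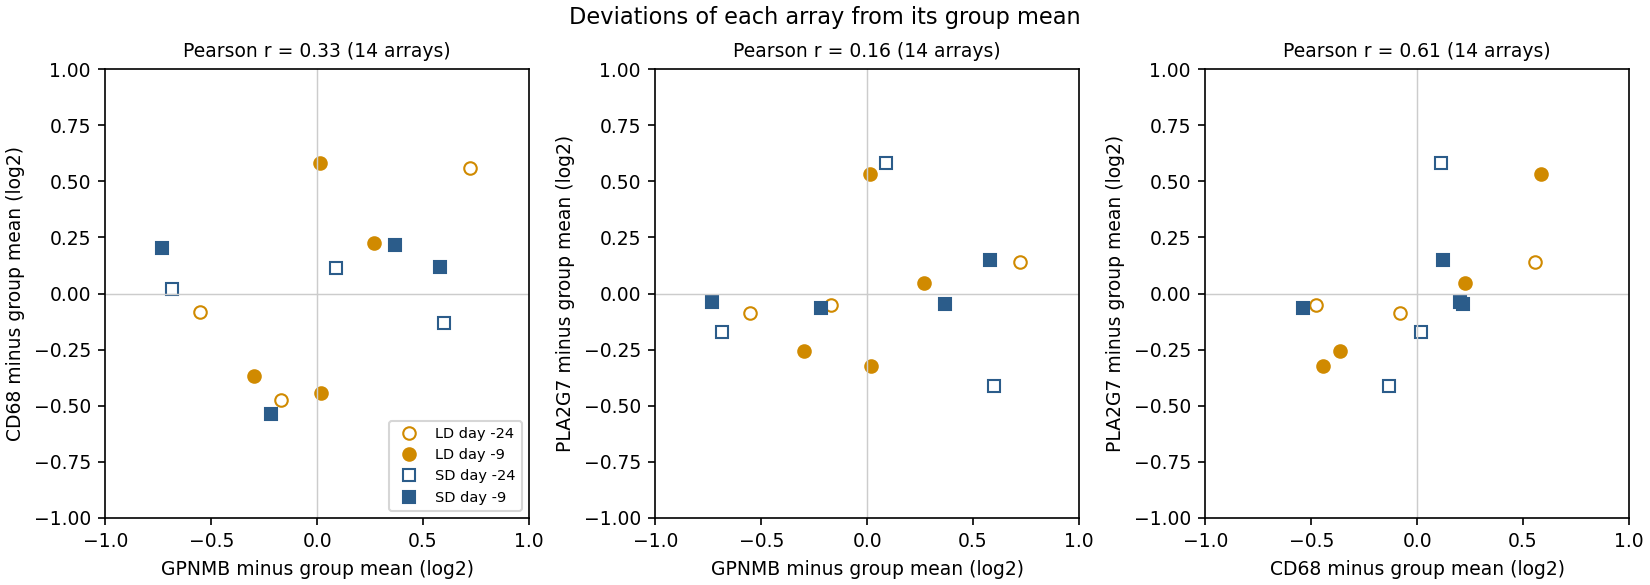
Deviation of each array from its group mean (log2, both axes) for the 3 pairs of genes, with GPNMB by its probe set Bt.9807.1; circles are LD and squares SD arrays, open at day -24 and filled at day -9. The points of CD68 and PLA2G7 run from lower left to upper right (r = 0.61), while those of GPNMB are scattered against both genes (r = 0.33 and 0.16).

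Ranked by that within-group r among 6240 genes of above-median signal, the genes most like GPNMB were HSPB8 (0.87), AIG1 (0.82), LFNG (0.82), ATG4C (0.81) and DNAJC18 (0.78). Those most like CD68 were the receptor gene PILRA (0.83), MARCHF8 (0.83), AMBRA1 (0.81), PTK2B (0.78) and ZC3H7A (0.75). For PLA2G7 they were CSNK1G3 (0.92), USP33 (0.91), the complement gene C1S (0.90), MFF (0.88) and the adaptor gene LCP2 (0.87). These are the highest of 6240 values over 14 arrays and are given as a description. No gene stands in more than 1 of the 3 lists. PLA2G7 itself was at place 61 for CD68, and CD68 at place 239 for PLA2G7.

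Other macrophage genes give the setting of these differences. Of a list of 38 core macrophage genes, without GPNMB, CD68 and PLA2G7, 29 had a probe set, and CD163 and MRC1 were not analysed here. At day -9, 25 of the 29 were below 0 for SD minus LD, where 60.3% of all named genes were, and the median was -0.18 against -0.04 for all named genes. By limma 0 of 29 passed the adjusted threshold. At an unadjusted p under 0.05 there were 3, lower in SD, against 1.84% of named genes. None of the 29 had day -9 groups that did not overlap with SD lower, where 1.52% of named genes did. The median rested on single arrays. Leaving out LD day -9 replicate 2 gave -0.04, leaving out SD day -9 replicate 1 gave -0.03 and leaving out SD day -9 replicate 3 gave -0.27, and weighting arrays by their quality gave -0.07.

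The receptor of macrophage colony-stimulating factor, CSF1R, was at 9.41 ± 0.14 in SD and 9.56 ± 0.36 in LD (SD of the arrays, n = 4 each), a difference of -0.15 (95% interval -0.49 to 0.19). The signalling adaptor TYROBP differed by -0.36, the endotoxin co-receptor CD14 by -0.41, the complement gene C1QA by -0.23, AIF1 by -0.22 and the scavenger receptor MSR1 by 0.27. The 3 genes of unadjusted p under 0.05, named after their values were seen, were F13A1 (-1.28), which encodes a coagulation factor subunit of resident macrophages, the complement receptor gene VSIG4 (-0.61) and the integrin gene ITGAM (-0.27). F13A1 read 7.68 to 8.94 in LD and 6.29 to 7.81 in SD at day -9, so its groups overlapped. ITGAM lay below the lower quartile in all 14 arrays.

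**Figure D4:**
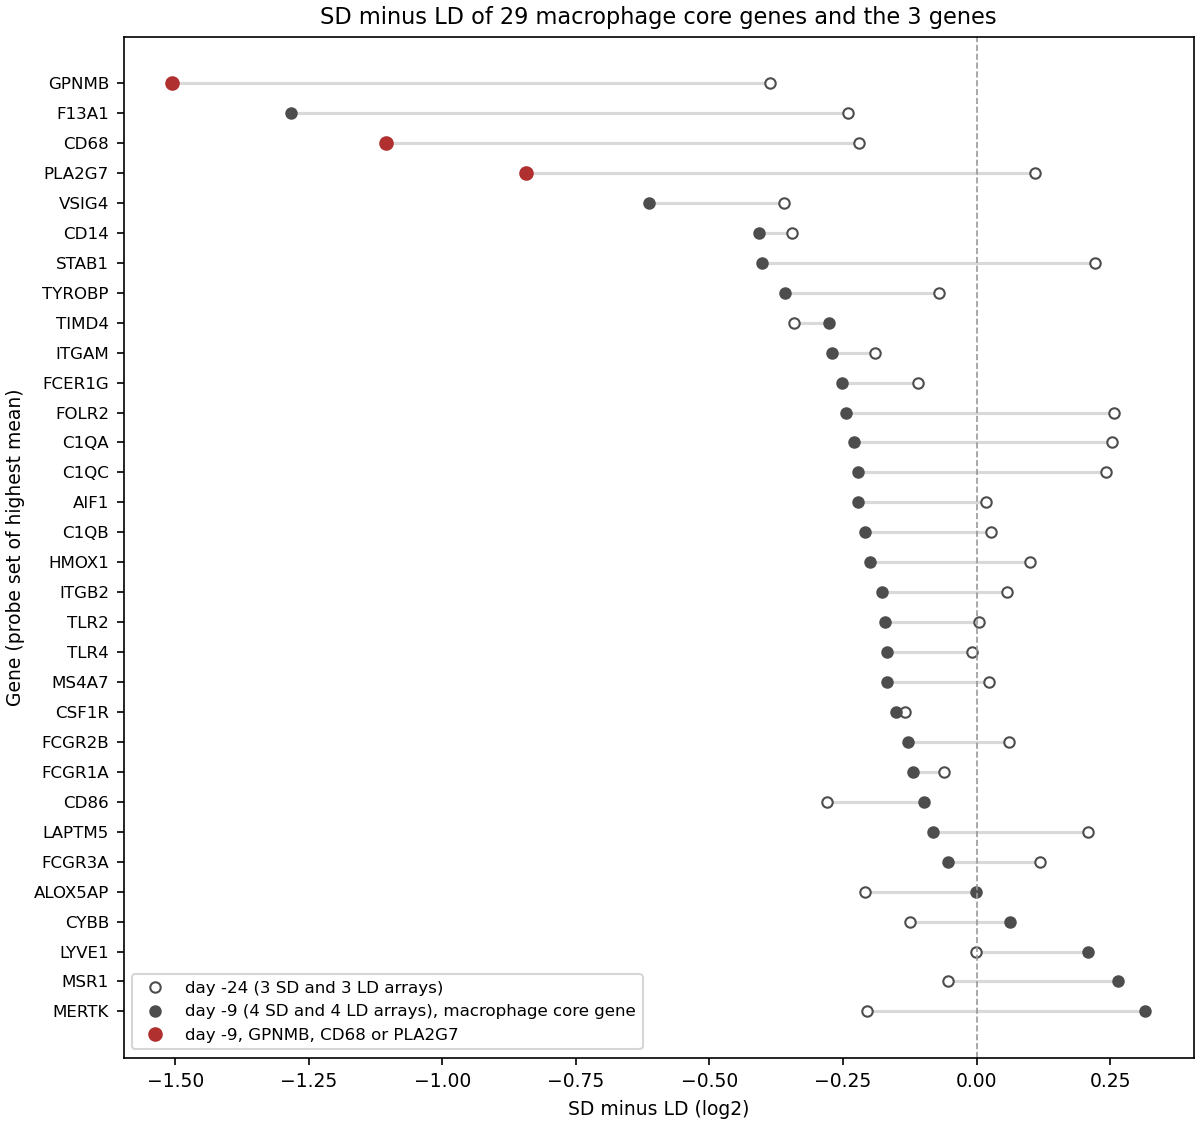
SD minus LD (log2, horizontal axis) of the 29 measured core macrophage genes and of GPNMB (Bt.9807.1), CD68 and PLA2G7, 1 row per gene, at day -24 (open circles) and day -9 (filled circles; red for the 3 genes). The red circles lie at -1.51, -1.11 and -0.84, and the filled grey circles between -1.28 (F13A1) and 0.32 (MERTK), with a median of -0.18.

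A score of the core list, the mean over its genes of the centred log2 value, was between -0.07 and 0.52 in LD and between -0.35 and 0.08 in SD at day -9, so the groups overlapped. LD day -9 replicate 2, the highest array for CD68 and PLA2G7, was the highest for this score. With the score subtracted array by array, the day -9 differences were -1.31 for GPNMB Bt.9807.1, -0.91 for CD68 and -0.65 for PLA2G7, values that rest on the day -9 signal by which the genes were chosen and separate no cell number from signal per cell. Bt.9807.2 differed by -0.79 and Bt.9807.3 by 0.05. Within groups, r of this score with GPNMB was -0.31 (permutation p = 0.243, rho -0.40, permutation p = 0.187, r -0.37 without the 2 farthest arrays). With CD68 it was 0.25 (permutation p = 0.545, rho 0.01, permutation p = 0.984, r 0.02 without those arrays), and with PLA2G7 0.44 (permutation p = 0.147, rho 0.26, permutation p = 0.376, r 0.13). These belong to 21 such relations with 7 list scores, whose adjusted permutation p was 0.735 or more in each.

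Genes of lipid-laden macrophages, the state in which GPNMB is best known, were counted on a list of 36 with 28 measured. At day -9, 22 of 28 were below 0 for SD minus LD (60.3% of all named genes were) with a median of -0.10, and 0 passed by limma. The median was -0.17 when SD day -9 replicate 1 was left out or arrays were weighted, and -0.06 when SD day -9 replicate 2 was left out. Osteopontin (SPP1) differed by -0.10, APOE by -0.20, the galectin LGALS3 by -0.10 and the lysosomal protease genes CTSB and CTSD by 0.04 and -0.16. The acid lipase LIPA differed by -0.09. At an unadjusted p under 0.05 there were 3 of 28 genes, CTSK (-0.40), ACP5 (-0.36) and LGMN (-0.31), each lower in SD, where 1.84% of all named genes were. Of these LGMN had groups that did not overlap, 1 of 28 where 1.52% of named genes had. CTSK was on the list of genes to be named, and the other 2 were named after their values were seen. TREM2 was not analysed here.

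For the day difference averaged over photoperiods, of the 28 lipid-laden macrophage genes, 22 were above 0 with a median of 0.13, or 0.0874 with array medians subtracted (0 passed by limma), and of the 29 core genes 12 were, with a median of -0.04, where 53.8% of all named genes were above 0 and the median was 0.02. The core median was 0.0004 when LD day -24 replicate 1 was left out, 0.01 for SD day -9 replicate 1, -0.14 for LD day -9 replicate 2 and 0.05 with array weights, so its side of 0 was not settled. The difference between both lists was not tested. Other cells had genes above 0 in the same comparison: 10 of 11 adipocyte genes (median 0.35), 7 of 9 myoepithelial genes (0.35), 12 of 12 endothelial genes (0.10) and 10 of 14 luminal genes (0.11). Part of these lists was of low signal. Of the adipocyte genes, ADIPOQ lay below the lower quartile in 14 arrays, LEP in 13 and CIDEC in 7. The endothelial gene VWF lay below it in 13 and the luminal gene ESR1 in 14. FABP4, CD36 and LPL stand in the adipocyte and the lipid-laden macrophage list alike, and the part of these other cells was not tested. Among lysosomal genes, 26 of 32 measured of 38 were above 0 with a median of 0.16, or 0.10 when LD day -24 replicate 1 was left out or arrays were weighted. By limma 0 passed the adjusted threshold and 9 had an unadjusted p under 0.05 in the higher direction, where 3.87% of named genes did.

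Lysosomal genes at day -9 had a median SD minus LD of -0.04, with 19 of 32 below 0, the share of all named genes being 60.3%. With each array left out the median ran from -0.0962 (SD day -9 replicate 1) to -1.62e-05 (SD day -9 replicate 2), and it was 0.0062 over all probe sets of these genes. GUSB and CTSA, both of them lysosomal hydrolase genes and named after their values were seen, were the 2 with an unadjusted p under 0.05, at -0.48 and -0.49, and their groups did not overlap (2 of 32 by either count, where 1.84% and 1.52% of named genes were lower in this way). The LAMP relatives of CD68 differed little: LAMP1 by 0.04 (95% interval -0.19 to 0.27), LAMP2 by -0.11 (-0.39 to 0.16) and LAMP3, of low signal, by -0.17. LAMP2 was 0.27 higher at day -9 than at day -24 averaged over photoperiods (limma adjusted p = 0.636).

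Of the genes around GPNMB, the transcription factor MITF, which activates GPNMB in pigment cells and osteoclasts, differed by -0.62 at day -24 (95% interval -1.23 to -0.01, limma adjusted p = 0.9997) and by 0.18 at day -9. MITF had a mean signal of 5.12 and lay below the lower quartile in 2 arrays. PMEL, the close relative of GPNMB, differed by -0.16 at day -9, and the hyaluronan receptor CD44, a binding partner of GPNMB, by 0.00. Pigment cells also make GPNMB, and 5 of 8 melanocyte genes were measured: TYR and DCT lay below the lower quartile in all 14 arrays and TYRP1 in 12, while PMEL and SOX10 had mean signals of 4.90 and 4.71. Their median SD minus LD at day -9 was -0.02, with 3 of 5 below 0.

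Of the genes that make, break down or sense platelet-activating factor, 12 of 14 were measured beside PLA2G7. At day -9, 6 of 12 were below 0 for SD minus LD with a median of 0.01, which ran from -0.01 to 0.05 with each array left out. Of the 12, 0 passed by limma and 0 had an unadjusted p under 0.05, where 1.84% of named genes were lower in this way, a share at which a list of this size holds few or none. PAFAH2, the intracellular relative of PLA2G7, differed by -0.21 at day -9 and by 0.48 at day -24 (95% interval 0.07 to 0.89, limma adjusted p = 0.9997). The receptor PTAFR differed by -0.28 at day -9, the synthetic enzyme LPCAT2 by 0.43 and PAFAH1B1 by 0.04. LPCAT2 was of low signal, with a mean of 4.63, and lay below the lower quartile in 4 arrays. Genes of macrophage growth and recruitment, 10 of 18 measured, had a median of -0.01 at day -9 with 5 below 0, among them CSF1 at 0.01 and CCL2 at -0.03.

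Markers of other cells at day -9 are set beside all named genes, of which 60.3% were below 0 for SD minus LD (median -0.04). Neutrophil genes had 10 of 11 below 0 with a median of -0.45. Their scores were -0.38 to 0.69 in LD and -0.83 to 0.42 in SD. Part of this list was of low signal. ELANE lay below the lower quartile in 14 arrays, CXCR1 in 13, CATHL4 in 7, CATHL1 in 6 and S100A8 in 2. Fibroblast genes had 11 of 14 below 0 with a median of -0.15. Of the 14, 3 had groups that did not overlap and 2 an unadjusted p under 0.05, lower in SD in each case. Among all named genes these shares were 1.52% and 1.84%. There were 10 of 16 T and NK cell genes below 0, close to the share of all named genes, with a median of -0.06. At an unadjusted p under 0.05, 1 neutrophil gene and 1 T and NK cell gene were lower in SD. Dendritic cell genes had 4 of 6 below 0 with a median of -0.10 and B and plasma cell genes 4 of 5 with -0.17. Luminal epithelial genes had 2 of 14 below 0 with a median of 0.06. Adipocyte genes had 5 of 11 (0.02), endothelial genes 4 of 12 (0.05), myoepithelial genes 3 of 9 (0.09) and skin keratinocyte genes 0 of 3 (0.10). In these lists 0 genes passed by limma, and the part of these cells in the differences of GPNMB, CD68 and PLA2G7 was not tested.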

How the data were processed

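Per the labels, biopsy RNA had an integrity number over 7.0, and 2 µg per sample were copied from an oligo(dT) primer and labelled with biotin. Per the submitters' processing notes the authors summarised the arrays with RMA, and the range of the deposited numbers is that of log2 values; software and genome build are not given in the sources used here. RMA scales the arrays to each other, so shifts of all transcripts are not seen. Of 24128 probe sets, 112 controls were left out, and 13292 of the 24016 tested carry 1 gene symbol (9155 genes), 86 several and 10638 none. In gene lists each gene stood with its probe set of highest mean over arrays.

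In R 4.3.3, limma 3.58.1 fitted 4 group means over 14 arrays, with two-sided moderated tests adjusted by Benjamini-Hochberg over 24016 probe sets (threshold 0.05), and the procedure was tested on simulated data. Permutation within groups used 100000 resamples in Python 3.11.15. The members, lists and named genes were chosen with earlier results of these data known. Named were all probe sets of the 3 genes, a fixed list of relatives, partners and markers, and the 5 genes of highest within-group r. The relations with list scores, the subtraction of the core score and the refits of lists and correlations without single arrays were added after seeing the data. SDC4 and TFEC were not analysed here. Alternatives were each array left out, other scalings, filters, weights, variance priors, a replicate block and a macrophage covariate. The number of arrays limits the precision.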

Additional observations from a re-analysis of the deposited data

Results flagged for a closer look

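In 8 of the 84 groups of 4 arrays examined (the 5 probe sets, 5 list scores and 32 other genes at day -9), 1 array lay far from the other 3 by Dixon's ratio at the 95% level, which chance gives in about 1 in 20 groups. GPNMB Bt.9807.2 was at 5.50 in LD day -9 replicate 4, against 6.65 or above in the other LD arrays, and the day -9 difference without this array was -1.28. CD68 was at 6.52 in SD day -9 replicate 2, and its difference without this array was -0.93. PLA2G7 was at 6.65 in SD day -9 replicate 3, the highest of its group, and its difference without this array was -0.89. The macrophage core score was at 0.52 in LD day -9 replicate 2, and without this array the differences were -1.50 for GPNMB Bt.9807.1, -0.91 for CD68 and -0.67 for PLA2G7. Of the other genes, APOE was at 10.84 in SD day -9 replicate 3 and ITGAM at 2.80 in SD day -9 replicate 4. CTSB was at 12.45 and CSF1 at 7.71 in SD day -9 replicate 1. Each of these 4 values was the highest of its group.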

How the results depend on the processing

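At day -24 and for the averaged day difference, none of the 5 probe sets passed an adjusted p of 0.05 in limma under any alternative run. For the averaged day difference none reached an exact permutation p under 0.05. At day -24 the exact permutation allows no p under 0.1 and cannot decide this. Directions did change. With each array left out, the day -24 difference ran from -0.458 to 0.0596 for CD68, from -0.18 to 0.32 for PLA2G7 and from -0.57 to 0.18 for GPNMB Bt.9807.3, which was 0.15 with array weights. The averaged day difference then ran from 0.29 to 0.64 for GPNMB Bt.9807.1, from 0.23 to 0.46 for Bt.9807.2, from 0.19 to 0.44 for CD68, from -0.0703 to 0.18 for PLA2G7 and from -0.21 to 0.16 for Bt.9807.3. That of PLA2G7 was -0.0274 without both arrays of low signal, -0.0114 with quantile normalization and -0.0112 with array medians subtracted. That of Bt.9807.3 was 0.121 with the replicate block, 0.123 with array weights and 0.0028 with quantile normalization. The cause was not tested.

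At day -9 the differences of GPNMB Bt.9807.1, CD68 and PLA2G7 were below 0 in all refits, from -1.70 to -1.26, from -1.25 to -0.91 and from -0.95 to -0.67 with each array left out. The genes were chosen on this contrast and their groups did not overlap, so leaving out an array could not turn the sign. The day -9 refits are therefore a description and no support for the difference. The mean of the GPNMB probe sets gave -0.88, and the macrophage core score as a covariate gave -1.66, -1.01 and -0.71. The called probe sets numbered 0 in each comparison, and 2 for the averaged day difference when probe sets under the median signal were left out. With raw values in place of deviations, r of GPNMB was 0.76 with CD68 and 0.61 with PLA2G7, which includes the group differences the genes were chosen for. Deviations of same-numbered arrays correlated between -0.13 and 0.25 for LD with SD at day -24 and between -0.02 and 0.30 for LD with SD at day -9. Between both days they correlated between -0.31 and 0.33 in LD and between 0.04 and 0.25 in SD. The best match had the same number in some pairs and not in others. These values do not settle whether equal numbers share a cow, and the numbers were not taken as pairs. The replicate block left the photoperiod differences of GPNMB Bt.9807.1 at -0.39 and -1.51, moved its averaged day difference from 0.46 to 0.63 and that of Bt.9807.2 from 0.31 to 0.51, and changed no call. A fit on the groups of a contrast alone has no separate form for the averaged day difference, which uses all 4 groups.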
